A study of Mus musculus with 12 samples.

Results

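Whole testes of Sohlh2 knockout mice were compared with wild-type testes at postnatal day 7, on 8 of the 12 Affymetrix whole-genome arrays of a mouse study. The arrays were chosen by their titles, 4 labelled Sohlh2 knockout (numbers 1, 3-1, 4 and 5) and 4 labelled wild type (numbers 3, 4, 5 and 6), and were described over every probe set with exactly 1 gene symbol. The knockout mice were Sohlh2-/-, and the wild-type mice carried neither knockout. Both groups shared the C57BL/6, 129S5, SvEvBrd hybrid background, and the labels name no other allele and no agent. Each array held RNA from 3 testes, 1 from each animal, so the 4 arrays of a group stood for 12 animals and every p-value below measures the spread between pools. The other 4 arrays of the study, from Sohlh1-/- testes, entered the estimate of the spread and 1 comparison near the end. They also entered the log offset, the filter on dim probe sets and the choice of probe set per gene.

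SOHLH2 and its partner SOHLH1 are basic helix-loop-helix transcription factors of germ cells. Proteins of this family bind DNA as pairs, at short sites called E-boxes. In the postnatal testis both are known from spermatogonia, the dividing germ cells that include the stem cells and the cells that differentiate towards meiosis, and both also act in oocytes. At this age the seminiferous tubules hold spermatogonia among Sertoli cells, with peritubular, Leydig, endothelial and immune cells around them. In RNA of a whole organ, fewer cells of a type and less RNA per cell cannot be told apart. Ddx4, a helicase of germ cells, read 3752 to 4722 over the 8 arrays, and Clu, a secreted protein abundant in Sertoli cells, read 29221 to 42302.

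The targeted gene was read first. Sohlh2 gave a MAS5 signal, the linear intensity of a probe set, of 885, 1104, 1012 and 1200 on wild type 3, 4, 5 and 6. It gave 157, 93.6 and 73.2 on Sohlh2 knockout 3-1, 4 and 5, and 1847 on the array labelled Sohlh2 knockout 1. That array thus went against its label, with more signal than any wild-type array. Over the 4 arrays as labelled the log2 difference, knockout minus wild type, was -2.18 (SE 0.87, limma adjusted p = 0.197). It was -3.17 without the array labelled Sohlh2 knockout 1, a value that is no test because the array was singled out by this gene. The labels do not say whether the probe set lies in the deleted part of the gene.

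Sohlh1 also set that array apart. Its signal was 1125, 1138, 1200 and 1233 in wild type, 465, 494 and 563 on Sohlh2 knockout 3-1, 4 and 5, and 126 on the array labelled Sohlh2 knockout 1. All 4 arrays labelled Sohlh2 knockout lay below all wild-type arrays for Sohlh1, but their spread was wide and the gene did not pass (log2 difference -1.66, SE 0.54, adjusted p = 0.112; -1.19 without that array, adjusted p = 0.24). Groups are used as labelled throughout, and results are given with and without that array. Of the 10 nearest protein-coding genes on each side of Sohlh2, 15 were bright enough to test and 1 changed. This was Rfxap, a subunit of a regulator of MHC class II genes, at 68.6% of wild type (log2 difference -0.53, adjusted p = 0.0171), and it lost the threshold without wild type 5 or 6 (adjusted p up to 0.0656) and with the mean of its probe sets (-0.16, adjusted p = 0.524).

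The array labelled Sohlh2 knockout 1 differed in RNA measures too. Its ratio of 3' to 5' control signal, which rises when RNA is degraded or copied incompletely, was 1.63 for Gapdh against 0.744 to 0.818 on the other 7 arrays, and 3.56 for beta-actin against 1.30 to 1.43. Its correlation with the other arrays of its label was 0.966 to 0.97 over tested genes, where the other pairs within the 2 groups reached 0.984. It lay outside the range of the other 3 arrays of its label for 69.5% of tested genes, against 38.8% to 48.1% for each of those. Neutrophil genes were also high there. S100a8, a calcium-binding protein of neutrophils, read 3993 on that array and 19.5 to 140 on the other 7, S100a9, its partner, 2359 against 16.9 to 78.0, and the neutrophil granule gene Ngp 1323 against 14.6 to 100.2. The 3 genes were singled out after their values were seen, and none passed the test. A fit with an added term for the control ratio called 299 genes higher and 400 lower in the knockout. The main fit called 218 and 295. The part of the other measures in other results was not tested beyond fits that left out that array or gave it less weight.

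**Figure D1:**
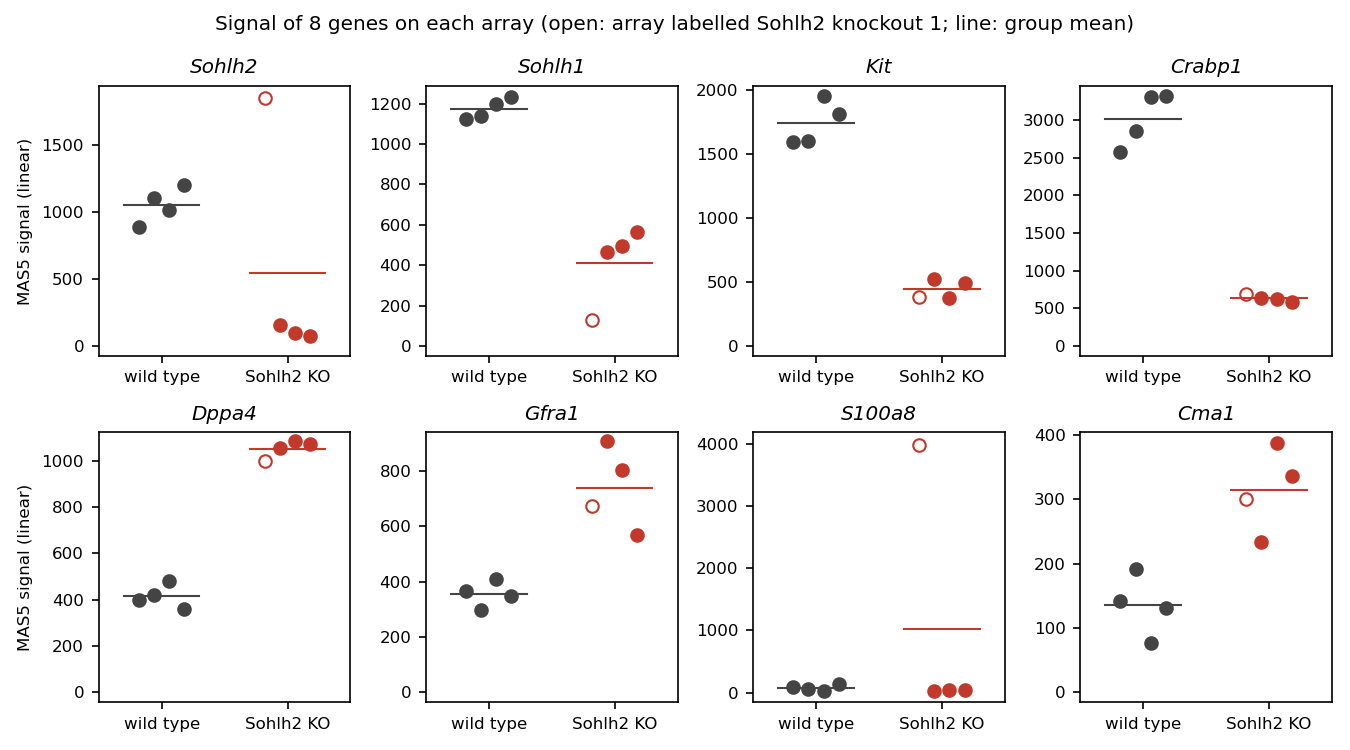
MAS5 signal (linear) of 8 genes on the 4 wild-type and 4 arrays labelled Sohlh2 knockout; each point is an array, the line is the group mean, and the open point is the array labelled Sohlh2 knockout 1. That array was the highest of all for Sohlh2 (1847) and S100a8 (3993), but lay with the other 3 knockout arrays for Kit, Crabp1, Dppa4, Gfra1 and Cma1, where the groups did not overlap.

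Across 13702 genes, 513 (3.74%) passed an adjusted p under 0.05. Of these 218 (1.59%) rose and 295 (2.15%) fell in the Sohlh2 knockout, and 51 (0.372%) rose and 52 (0.38%) fell by at least 2-fold. In the text below, rose, fell and changed refer to this threshold, and log2 differences are on the scale of log2(signal + 14.2), which shrinks those of dim genes. The median difference over all genes was 0.02. The shares of 1.59% and 2.15% apply beside every count of list members below. The 4 knockout arrays lay wholly above or wholly below the 4 wild-type arrays for 1515 genes (11.1%), and for 500 of the 513 that changed (3.65% of genes tested). None of the 4 knockout arrays lay on the other side of the wild-type mean for any changed gene. The array labelled Sohlh2 knockout 1 was the nearest to wild type for 132 of them and the farthest for 202. The changed genes were called with these same 4 arrays, which favours agreement in direction, so these counts are no test of that array.

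Without the array labelled Sohlh2 knockout 1, 475 genes (3.47%) passed, 176 (1.28%) higher and 299 (2.18%) lower. Of these 390 had also passed with all arrays, each in the same direction. A further 123 passed only with the array and 85 only without it. The counts were smaller without wild type 4 (112 higher and 150 lower), wild type 5 (133 and 150), wild type 6 (126 and 155) or Sohlh2 knockout 4 (112 and 160). In each of the 12 fits that left out 1 array, 205 genes passed, 83 higher and 122 lower. Of 88 changed genes named in the text 61 are among these, and the exceptions are given with the arrays whose absence ended the call.

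**Figure D2:**
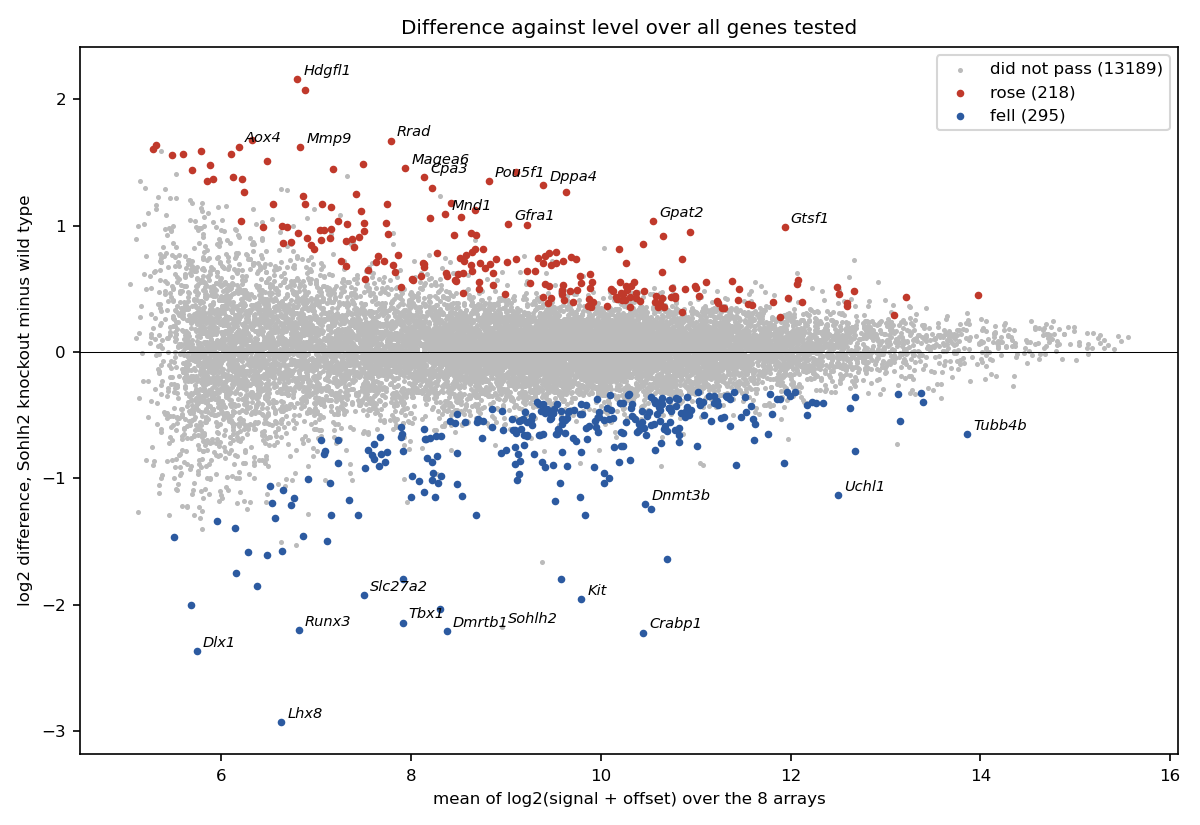
Log2 difference (Sohlh2 knockout minus wild type) against the mean of log2(signal + 14.2) over the 8 arrays, 1 point per gene; red points rose (218), blue points fell (295) and grey points did not pass. Sohlh2 itself is grey at -2.18, while Lhx8 (-2.93) and Crabp1 (-2.22) mark the lower edge and Hdgfl1 (2.16) the upper edge.

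Several genes of differentiating spermatogonia fell in the knockout. Crabp1, which binds retinoic acid in the cytoplasm, read 2573, 2853, 3304 and 3315 in wild type and 695, 630, 618 and 588 in the knockout. These arrays did not overlap, and the mean fell to 21.0% of wild type (log2 difference -2.22, SE 0.13, adjusted p = 1.75e-07). Kit, the receptor for the Sertoli cell ligand KITL and the surface mark of differentiating spermatogonia, read 1591, 1598, 1953 and 1815 against 382, 524, 372 and 491 (25.4% of wild type, log2 difference -1.95, SE 0.15, adjusted p = 1.18e-06). For Kit the array labelled Sohlh2 knockout 1 lay between the other knockout arrays.

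Further members of that group fell, with no overlap between the arrays of the 2 groups. Dmrtb1, a doublesex-related factor of spermatogonia, read 659 to 738 in wild type and 181, 71.3, 162 and 181 in the knockout (log2 difference -2.21, adjusted p = 3.77e-05). Esx1, an X-linked homeobox gene, read 403 to 939 against 224, 133, 120 and 111 (-2.03, adjusted p = 0.00012). The LIM-only factor Lmo1 fell from 445 ± 101 to 117 ± 16.8 (SD, n = 4 each), and Dnmt3b, a de novo DNA methyltransferase, from 2138 ± 157 to 931 ± 177. The Dnmt3b signal of 1193 on the array labelled Sohlh2 knockout 1 was the nearest of the knockout arrays to wild type, and the difference of -1.20 became -1.32 without it.

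All 17 genes listed for differentiating spermatogonia were tested, of which 7 fell and 0 rose. Their median log2 difference was -0.82, beside 0.02 over all genes. With the array labelled Sohlh2 knockout 1 left out, 9 fell and the median became -0.94. Sohlh2 is among these 9, where it is no test because it singled out that array, and it also enters that median. The list holds Sohlh1 and Sohlh2 themselves, which were among the 10 that did not pass with all arrays. The seventh gene that fell, Ly6k, lost the threshold without any of wild type 4, 5 and 6, Sohlh1 knockout 3 and 5 and Sohlh2 knockout 3-1, 4 and 5 (adjusted p up to 0.147). Stra8, a gene switched on by retinoic acid before meiosis, read 3693, 4184, 5540 and 4991 in wild type and 4223, 3132, 3559 and 3131 in the knockout. The groups overlapped because of the array labelled Sohlh2 knockout 1, and Stra8 passed only without it (-0.38, adjusted p = 0.129 with all arrays; -0.47, adjusted p = 0.0471 without).

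The next 4 RefSeq promoter windows show the sequence upstream of these genes, each the 250 bases before the start site in build GRCm38.p6, on the strand of the gene. Capitals mark E-boxes, written CANNTG and read the same on both strands. Crabp1 (chr9:54764498-54764747, plus strand) and Kit (chr5:75574737-75574986, plus strand) are shown as strong falls, Dmrtb1 (chr4:107683590-107683839, minus strand) as a fall whose window holds the motif, and Mnd1 (chr3:84155787-84156036, minus strand) as the rise with the smallest p. Kit and Dmrtb1 were picked after the matches were seen, and each has 2 annotated starts, of which 1 is shown.
Crabp1: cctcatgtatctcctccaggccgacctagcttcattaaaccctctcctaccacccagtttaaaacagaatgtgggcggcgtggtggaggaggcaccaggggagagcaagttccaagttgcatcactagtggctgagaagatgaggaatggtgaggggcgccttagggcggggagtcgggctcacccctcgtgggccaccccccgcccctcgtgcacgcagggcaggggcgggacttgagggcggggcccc
Kit: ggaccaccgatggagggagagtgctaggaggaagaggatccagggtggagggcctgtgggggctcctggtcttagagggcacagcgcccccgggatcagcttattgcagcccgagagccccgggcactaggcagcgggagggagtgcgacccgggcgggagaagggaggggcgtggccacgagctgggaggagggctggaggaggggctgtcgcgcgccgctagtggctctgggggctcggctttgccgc
Dmrtb1: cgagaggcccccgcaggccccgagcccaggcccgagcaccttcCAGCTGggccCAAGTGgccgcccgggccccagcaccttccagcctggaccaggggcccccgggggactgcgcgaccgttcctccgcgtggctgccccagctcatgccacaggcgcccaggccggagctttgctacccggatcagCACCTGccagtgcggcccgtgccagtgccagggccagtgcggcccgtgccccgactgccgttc
Mnd1: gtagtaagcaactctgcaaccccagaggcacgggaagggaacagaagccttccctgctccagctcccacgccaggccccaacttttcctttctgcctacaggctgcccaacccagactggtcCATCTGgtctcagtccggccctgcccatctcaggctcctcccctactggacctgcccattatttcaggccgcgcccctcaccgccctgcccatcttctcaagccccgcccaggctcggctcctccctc
These letters were absent from the windows of Crabp1 and Kit, which says nothing of sites elsewhere, and occurred 3 times for Dmrtb1 and 1 time for Mnd1. Windows were counted for 11043 of the 13702 genes tested, with 1 start per gene and the genes of 1 chromosome left out. Of these windows 57.6% held at least 1 CANNTG. The share was 54.6% of the 240 genes that fell and 59.5% of the 173 that rose. Among changes of at least 2-fold 21 of 42 falls and 30 of 37 rises (81.1%) held it. The narrower form CACGTG was in 8.49% of all windows tested, 9.17% of those of falls and 8.67% of those of rises. A match is a description of letters and not a binding site.

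Developmental transcription factors held the deepest falls. Lhx8, a LIM homeobox factor needed by oocytes, read 217, 272, 280 and 272 in wild type and 1.39, 53.7, 27.2 and 23.7 in the knockout (log2 difference -2.93, SE 0.38, adjusted p = 0.000225; -2.53 with 3 knockout arrays). The T-box factor Tbx1 read 382, 488, 561 and 556 against 113, 85.2, 99.4 and 106 (20.3% of wild type, adjusted p = 1.18e-06). Neither gene had a knockout array near the wild-type range.

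Dlx1, Ovol1 and Runx3 fell to levels near or below 48.6, the signal a probe set had to pass on 4 arrays to be tested. Dlx1, a homeobox factor, read 77.4 to 143 in wild type and 13.0, 29.1, 1.82 and 2.08 in the knockout (log2 difference -2.37). Ovol1, a zinc finger factor, read 63.7 to 105 against 26.0, 6.57, 16.2 and 2.83. Runx3 read 209 to 277 against 18.3, 92.8, 45.7 and 22.5 (-2.20). The sizes of these 3, and that of Lhx8 with a knockout mean of 26.5, depend on the offset. With an offset of 1 Dlx1 and Ovol1 missed the threshold (adjusted p = 0.057 each). All 4 knockout arrays lay under 48.6 for both, so both were tested only through arrays of other groups. Another tested probe set of Runx3 was dim in both groups (33.6 and 43.1), and with the mean of the gene's probe sets Runx3 did not pass (-0.84, adjusted p = 0.296).

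Of 40 factors on this list 28 were tested, and 9 fell and 1 rose (9 and 2 without the array labelled Sohlh2 knockout 1), with a median of -0.14. The falls were those of Lhx8, Dlx1, Tbx1, Runx3, Ovol1, Lmo1, Esx1, Sox3 and Foxn4. Foxn4 was no longer called without wild type 4, 5 or 6 or Sohlh2 knockout 4 (adjusted p up to 0.0621). The rise was that of Tbx4, a T-box factor of limb and lung, from 4.21 to 22.9 in wild type to 49.3 to 66.0 in the knockout. It failed the test without wild type 3, 4 or 6, or any of the 4 arrays labelled Sohlh2 knockout (adjusted p up to 0.0898), and its wild-type signals were all under 48.6. Among 39 clustered Hox genes 19 were tested and 1, Hoxb6, rose, from similarly dim signals (3.51 to 23.2 in wild type, 45.7 to 69.4 in the knockout; adjusted p = 0.0261). Hoxb6 missed the threshold without wild type 3, 5 or 6 or Sohlh2 knockout 3-1, 4 or 5 (adjusted p up to 0.0891). Tbx4 and Hoxb6 passed the filter on dim signals only through knockout arrays. The Hox median was 0.07.

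Some genes known from oocytes fell in these testes. Of 25 listed 14 were tested, 6 were too dim and 5 had no named probe set. Of the 14, 5 fell and 1 rose, with a median of -0.45, and without the array labelled Sohlh2 knockout 1 the counts were 4 and 1. Uchl1, a ubiquitin hydrolase abundant in oocytes, neurons and spermatogonia, read 7537, 8596, 9273 and 8922 in wild type and 4436, 3522, 3877 and 3810 in the knockout (45.6% of wild type, adjusted p = 5.71e-06). Lhx8 and Kit are also on the list, and the rise was that of Pou5f1. Figla, a basic helix-loop-helix factor that activates egg coat genes, had a difference of -0.87 (adjusted p = 0.0342), and Dppa3, a maternal chromatin factor, -1.21 (adjusted p = 0.0322). Each lost the threshold in 6 of the 12 fits that left out 1 array. These were the fits without wild type 4, 5 or 6 and without Sohlh2 knockout 3-1 or 5, together with Sohlh2 knockout 4 for Figla (adjusted p up to 0.124) and the array labelled Sohlh2 knockout 1 for Dppa3 (up to 0.113).

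Among genes of undifferentiated spermatogonia, which include the stem cells, changes ran in both directions. Gfra1, the receptor subunit for the niche growth factor GDNF, read 368, 296, 411 and 347 in wild type and 672, 909, 802 and 571 in the knockout (208% of wild type, log2 difference 1.01, SE 0.14, adjusted p = 0.00056). Its 2 other tested probe sets were dimmer, with differences of 0.53 and 0.33 that did not pass, and with the mean of its probe sets Gfra1 did not pass (0.62, adjusted p = 0.365). Id4, an inhibitor of basic helix-loop-helix factors known from spermatogonial stem cells, read 1042, 880, 861 and 725 against 1230, 1850, 1625 and 1517 (log2 difference 0.81, adjusted p = 0.00118). Pou5f1, the pluripotency factor OCT4, rose from 269 ± 27.9 to 728 ± 211 (SD, n = 4 each; adjusted p = 0.000212).

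Other genes of that compartment fell. Sox3, a factor of committed progenitors, read 1320, 1500, 1508 and 1787 in wild type and 682, 737, 761 and 848 in the knockout (49.5% of wild type, adjusted p = 0.000186). Neurog3, a basic helix-loop-helix factor of progenitors, fell from 351 ± 33.2 to 170 ± 15.7 (adjusted p = 0.00232). Epcam, a surface adhesion protein, fell from 1450 ± 121 to 744 ± 126 (adjusted p = 0.000389). A second, dimmer Epcam probe set had a difference of 0.03, and with the mean of both the gene did not pass (-0.46, adjusted p = 0.080). Pou3f1, a GDNF-regulated factor, had -0.84 (adjusted p = 0.0184) and lost the threshold without wild type 4 (adjusted p = 0.0742).

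Of 36 listed genes of undifferentiated spermatogonia 29 were tested, and 4 rose and 4 fell, with a median of 0.10. Utf1 was the fourth that rose, and was no longer called without wild type 4, 5 or 6 or Sohlh2 knockout 3-1, 4 or 5 (adjusted p up to 0.113). Without the array labelled Sohlh2 knockout 1, 6 rose and 4 fell. Ret, the signalling partner of GFRA1, read 282, 275, 239 and 178 in wild type and 580, 440 and 482 on Sohlh2 knockout 3-1, 4 and 5, while the array labelled Sohlh2 knockout 1 gave 232. It passed only without that array (0.75, adjusted p = 0.179 with it; 1.01, adjusted p = 0.0385 without). Foxc2, a forkhead factor of spermatogonial stem cells, had the same pattern in its test (0.63, adjusted p = 0.0594; 0.75, adjusted p = 0.0269).

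The list of GDNF-regulated genes shares Id4 and Pou3f1 with the one before, and of its 14 tested genes 1 rose and 2 fell (median 0.23). The other fall was that of Etv4, an ETS factor, from 59.7 to 111 in wild type to 21.0 to 30.9 in the knockout (adjusted p = 0.0337). Etv4 failed the test without wild type 3, 5 or 6 or Sohlh2 knockout 3-1, 4 or 5 (adjusted p up to 0.112). Nefm, a neurofilament subunit on that list, read 166 to 248 in wild type, 532, 383 and 426 on Sohlh2 knockout 3-1, 4 and 5, and 206 on the array labelled Sohlh2 knockout 1. It passed only without that array (0.77, adjusted p = 0.1; 1.03, adjusted p = 0.00838).

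**Figure D3:**
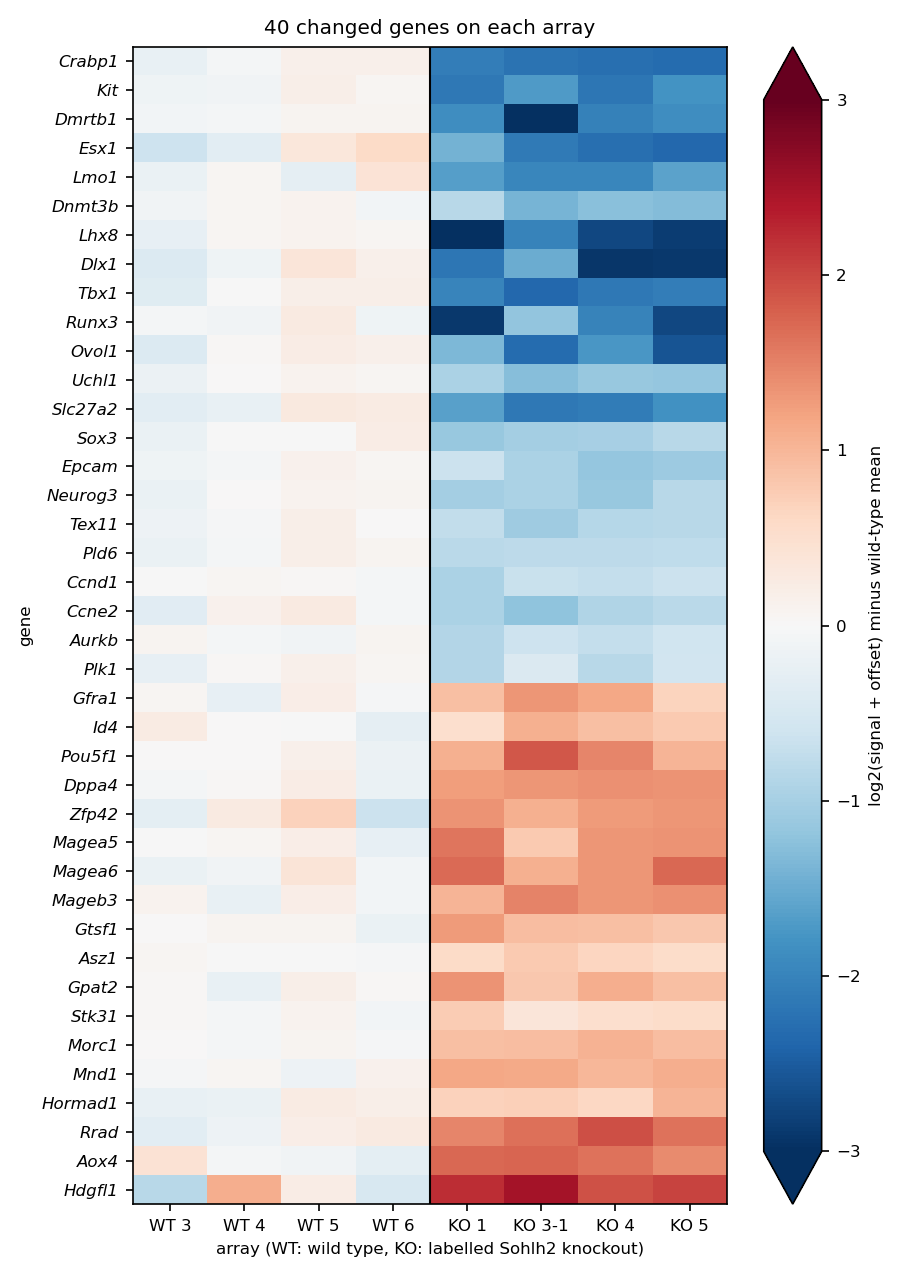
Log2(signal + 14.2) minus the wild-type mean for 40 changed genes (rows) on the 8 arrays (columns); blue is lower and red higher than the wild-type mean, and colours stop at 3 in either direction. The column of the array labelled Sohlh2 knockout 1 has the colour of the other 3 knockout arrays in every row, with the palest blue for Epcam among its falls. The genes were called with that array included, which favours this likeness.

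Dppa4, Zfp42 and Dppa2, genes of early germ cells and pluripotency, rose. Dppa3 fell, and Sox2 did not pass with all arrays (adjusted p = 0.0529). Dppa4, a DNA-binding protein of pluripotent cells, read 397, 419, 480 and 359 in wild type and 996, 1054, 1085 and 1069 in the knockout (254% of wild type, log2 difference 1.32, SE 0.10, adjusted p = 1.1e-06). The array labelled Sohlh2 knockout 1 was the lowest of its label here and still above every wild-type array. Zfp42, the pluripotency marker REX1, read 76.1, 118, 164 and 56.2 against 268, 217, 254 and 262 (adjusted p = 0.00795). Dppa2, the partner of DPPA4, had a difference of 1.68 (adjusted p = 0.0304) and missed the threshold without wild type 4 or 6 or Sohlh2 knockout 3-1, 4 or 5 (adjusted p up to 0.104).

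Magea5, Magea6 and Mageb3, testis-restricted members of the MAGE family of cancer-testis antigens, also rose. Magea5 read 491, 519, 569 and 416 in wild type and 1540, 866, 1266 and 1292 in the knockout (adjusted p = 0.000117). Magea6 read 115, 124, 179 and 127 against 470, 294, 356 and 475 (adjusted p = 8.96e-05), and Mageb3 191, 149, 205 and 167 against 371, 518, 467 and 480 (adjusted p = 7.65e-05). The array labelled Sohlh2 knockout 1 was the highest of its label for Magea5 and the lowest for Mageb3. Of the 11 MAGE genes tested 3 rose and none fell, where 1.59% and 2.15% of all genes did, and the median was 0.20. Members of this family are alike in sequence, so a probe set can read more than 1 of them.

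Of 21 tested genes expressed in germ cells of any stage 4 rose and 1 fell, with a median of -0.03. Over all genes 1.59% rose and 2.15% fell. The rises were those of Dppa4, Dppa2, Zfp42 and Stk31, a tudor domain kinase (147% of wild type, adjusted p = 0.00223). The fall was that of Tex11, an X-linked gene needed in meiosis, from 1409, 1534, 1777 and 1567 to 927, 737, 864 and 879 (54.2% of wild type, adjusted p = 0.000186). The germ cell helicase Ddx4 had a difference of 0.07 (adjusted p = 0.72).

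Genes of the piRNA pathway, which silences transposons in male germ cells, changed in both directions. Of 21 tested 5 rose and 1 fell (4 and 1 without the array labelled Sohlh2 knockout 1), where 1.59% and 2.15% of all genes did. Over the list 12 differences were above 0 and 9 below, with a median of 0.17. Gtsf1, a cofactor of PIWI proteins, read 2796, 2948, 2951 and 2427 in wild type and 6773, 5308, 5222 and 4891 in the knockout (200% of wild type, adjusted p = 0.000239), and its second probe set gave 0.85 beside 0.99. Gpat2, a mitochondrial acyltransferase tied to piRNA production, rose from 1041 ± 119 to 2158 ± 361 (SD, n = 4 each; adjusted p = 0.000107). Asz1, a protein of the mitochondrial cement, rose from 1274 ± 37.0 to 1988 ± 152 (adjusted p = 0.000333), but its second probe set had 0.07 and the mean of both did not pass (0.35, adjusted p = 0.331).

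The only fall on the piRNA list was that of Pld6, the nuclease ZUCCHINI that makes piRNA ends, from 869, 949, 1126 and 1059 to 562, 570, 574 and 578 (57.1% of wild type, adjusted p = 0.00065). Stk31 is on this list too. Tdrd5, the remaining rise, lost the threshold without any wild-type array, Sohlh1 knockout 4, Sohlh2 knockout 4 or 5 or the array labelled Sohlh2 knockout 1 (adjusted p up to 0.121). Morc1, a silencer of transposons in male germ cells that is not on the list and was named after its values were seen, read 1412, 1345, 1474 and 1369 in wild type and 2634, 2656, 2875 and 2686 in the knockout (194% of wild type, adjusted p = 6.68e-06).

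Of 32 tested meiosis genes 4 rose and 1 fell (3 and 2 without the array labelled Sohlh2 knockout 1), with a median of 0.11. Over all genes 1.59% rose and 2.15% fell. Mnd1, which with HOP2 promotes strand exchange, read 203, 219, 189 and 233 in wild type and 489, 480, 433 and 462 in the knockout (221% of wild type, adjusted p = 3.33e-05). Hormad1, a protein of meiotic chromosome axes, read 240, 242, 333 and 317 against 461, 472, 440 and 584 (adjusted p = 0.0049). Neither gene had overlapping groups. The other 3 calls were less stable. Sycp2 had 0.69 and was lost without wild type 3 or 4 or Sohlh2 knockout 4 (adjusted p up to 0.0619). Rec8 had 0.64 and was lost without wild type 3, 4 or 6, Sohlh2 knockout 5 or the array labelled Sohlh2 knockout 1 (up to 0.0732). Syce2 had -0.40 and was lost without wild type 4, 5 or 6, Sohlh1 knockout 3, 4 or 5 or Sohlh2 knockout 3-1, 4 or 5 (up to 0.161).

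Cell cycle genes changed downward only. Of 39 tested, 9 fell and 0 rose (median -0.14) and 8 fell without the array labelled Sohlh2 knockout 1. Ccnd1, cyclin D1, read 1529, 1607, 1591 and 1482 in wild type and 793, 968, 936 and 991 in the knockout (59.4% of wild type, adjusted p = 0.000561). Cyclin E2, encoded by Ccne2, read 611, 847, 930 and 738 against 394, 327, 406 and 436 (log2 difference -0.96, adjusted p = 0.00065). Both act in G1 and at the start of S phase.

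The mitotic kinases Aurkb and Plk1 fell to 61.0% and 62.1% of wild type (adjusted p = 0.00065 and 0.00512), and cyclin A2 (Ccna2) to 63.4% (adjusted p = 0.0103). A second Ccna2 probe set read 1702 and 1609 as group means, a difference of -0.08 (adjusted p = 0.823 with every probe set tested). Rrm2, the small subunit of ribonucleotide reductase, fell by 0.55 on the log2 scale, and its 2 other probe sets had -1.03 and -0.63. These 6 genes passed in every fit that left out 1 array. The helicase subunit Mcm2 (-0.57) was lost without wild type 6 (adjusted p = 0.0675). The DNA clamp Pcna (-0.40) was lost without wild type 4, 5 or 6, Sohlh1 knockout 3 or 4, Sohlh2 knockout 4 or 5 or the array labelled Sohlh2 knockout 1 (adjusted p up to 0.138). Rrm1 (-0.33) was lost without any array but wild type 3 and Sohlh1 knockout 2 (adjusted p up to 0.152).

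Among 18 tested genes of the retinoic acid pathway Crabp1 and Rbp4 fell and 0 rose, the median being -0.16 (3 fell without the array labelled Sohlh2 knockout 1, with Stra8). Rbp4, the retinol carrier, read 712, 798, 873 and 911 in wild type and 529, 394, 476 and 461 in the knockout (56.5% of wild type, adjusted p = 0.000782). Of 23 tested basic helix-loop-helix partners and Id proteins 1 rose (Id4) and 3 fell (Neurog3, Figla and Ascl2), with a median of -0.01. Ascl2, an achaete-scute factor of stem cells, fell from 444 ± 62.7 to 192 ± 29.5 (SD, n = 4 each; adjusted p = 0.0012), and its 2 other probe sets had -1.43 and -1.21.

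Of 23 tested genes of DNA methylation and chromatin 3 fell and none rose (median -0.07), and 1 of these, Dnmt3b, kept its call in all 12 fits without 1 array. Suv39h2, a histone H3 lysine methyltransferase of the testis, had -0.87 and was lost without wild type 4 or 5 (adjusted p up to 0.0757). Its other tested probe sets had -0.47 and -0.004 (adjusted p = 0.222 and 0.995 with every probe set tested). Eed, a Polycomb subunit, had -0.36 and was lost without wild type 4, 5 or 6 or Sohlh2 knockout 4 (up to 0.0835). A Polycomb-related gene outside the list, Pcgf5, fell from 5303 ± 635 to 2860 ± 118 (SD, n = 4 each; adjusted p = 8.26e-05), while its second tested probe set had 0.06.

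Of 20 cholesterol synthesis genes only Mvd, mevalonate diphosphate decarboxylase, fell (57.7% of wild type, adjusted p = 0.00859; list median -0.07). Of 15 genes of fatty acid uptake only Slc27a2, an acyl-CoA synthetase, fell, from 269, 288, 420 and 408 to 101, 65.7, 67.9 and 86.8 (23.2% of wild type, adjusted p = 8.96e-05; median -0.02). Of 15 matrix proteases and inhibitors only Mmp9, a gelatinase, rose, from 79.0, 79.9, 51.9 and 16.7 to 107, 252, 244 and 178 (adjusted p = 0.0096; median 0.08). For Mmp9 the array labelled Sohlh2 knockout 1 was the nearest to wild type.

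Among 17 apoptosis regulators Bid fell (-0.60) and Pmaip1, the BH3-only protein NOXA, rose (1.12), with a median of 0.02. Bid was lost without wild type 6 (adjusted p = 0.0609), and Pmaip1 without wild type 4, 5 or 6 or Sohlh2 knockout 3-1 or 4 (up to 0.0866). No gene passed among 18 immediate early genes (median 0.07). Of 28 ribosomal protein genes 1 rose, Rps6 at 0.76, with a median of 0.09, and it was lost without any of 9 arrays (adjusted p up to 0.112). The 9 were the 4 of wild type, the 4 labelled Sohlh2 knockout and Sohlh1 knockout 3. Among ribosomal protein paralogs that are not on the list, Rpl39l, made in male germ cells, rose from 5484 ± 322 to 7700 ± 648 and Rpl22l1 from 13772 ± 735 to 18906 ± 1425 (SD, n = 4 each; adjusted p = 0.00471 and 0.0074).

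**Figure D4:**
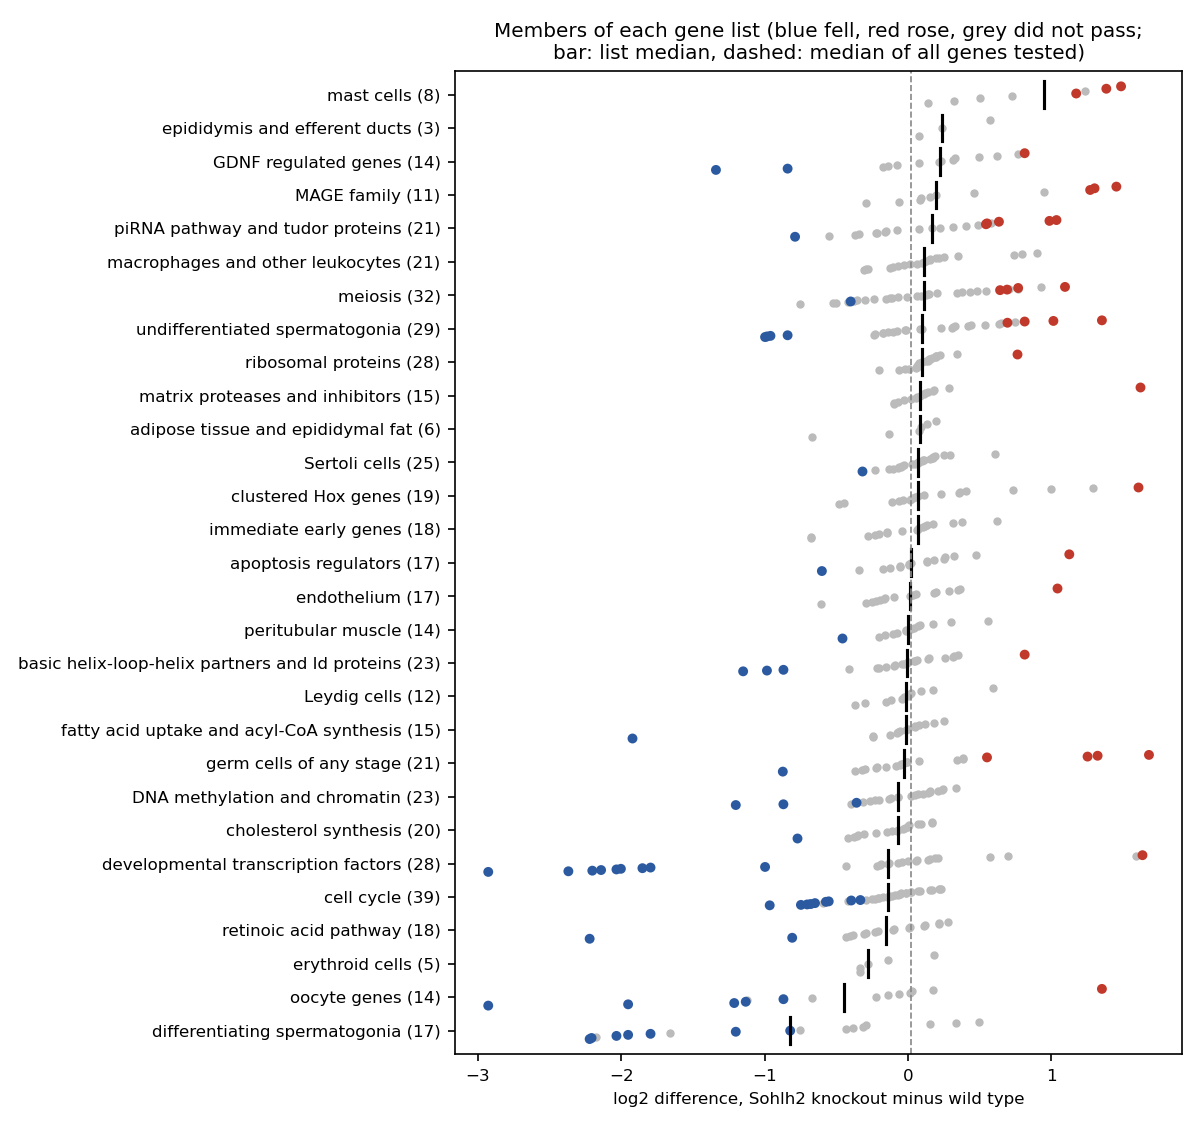
Log2 difference (Sohlh2 knockout minus wild type) of each tested member of 29 gene lists, with the number tested in parentheses; blue points fell, red points rose, grey points did not pass, bars are list medians and the dashed line is the median of all genes tested (0.02). Differentiating spermatogonia have the lowest median (-0.82) and mast cells the highest (0.95), while lists of Sertoli, Leydig, peritubular and endothelial cells centre near 0.

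The falls with the smallest p outside these groups were those of Mbnl3, a splicing regulator, and Ccng1, cyclin G1. Mbnl3 read 1212, 1389, 1517 and 1572 in wild type and 387, 409, 379 and 418 in the knockout (28.0% of wild type, adjusted p = 1.75e-07). Its 2 other tested probe sets had 0.14 and 0.41, and with the mean of all 3 the gene did not pass (-0.41, adjusted p = 0.228). Ccng1 read 2609, 3026, 2811 and 3273 against 740, 995, 995 and 1017 (32.0% of wild type, adjusted p = 7.95e-07), with -0.65 and 0.08 for its other probe sets. The dimmer Ccng1 probe set at -0.65 also passed when every probe set was tested (adjusted p = 0.0365), and the one at 0.08 did not (adjusted p = 0.821).

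Of the brightest genes that fell, Tubb4b, a beta-tubulin, read 15585, 17824, 18761 and 23044 in wild type and 12579, 12611, 11097 and 11353 in the knockout (63.3% of wild type, adjusted p = 0.00182), where its 4 other tested probe sets were dimmer and the mean of all did not pass (-0.16, adjusted p = 0.808). Mt2, a metallothionein that binds zinc, fell to 57.6% of wild type (adjusted p = 0.000186). Ndrg4, named after its values were seen, fell from 3758 ± 373 to 2014 ± 124 (SD, n = 4 each; adjusted p = 5.79e-05). Enc1, a kelch protein that binds actin, was among the bright genes that rose, from 3550 ± 469 to 5253 ± 217 (adjusted p = 0.00565), and missed the threshold with the mean of its probe sets (0.45, adjusted p = 0.0807).

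The largest rise among changed genes was that of Hdgfl1, a testis relative of hepatoma-derived growth factor. It read 15.6, 97.8, 46.9 and 23.6 in wild type and 232, 281, 183 and 199 in the knockout (487% of wild type, log2 difference 2.16, adjusted p = 0.00105). Rrad, a small GTPase of muscle, rose from 85.4, 97.4, 127 and 134 to 327, 376, 461 and 368 (345% of wild type, adjusted p = 1.0e-05). Aox4, an aldehyde oxidase, rose from 28.0 ± 9.47 to 114 ± 13.0, Mypn, a sarcomere protein, from 28.2 ± 15.4 to 106 ± 26.7, and Arhgap9, a GTPase-activating protein of blood cells, from 22.5 ± 12.5 to 86.1 ± 20.4 (SD, n = 4 each). The wild-type means of these last 3 and of Hdgfl1 were below 48.6, so their size depends on the log offset. All 4 wild-type arrays lay below 48.6 for 13 changed genes, Aox4 and Arhgap9 among them, and all 4 knockout arrays for 4. Such genes could pass the filter only through arrays of other groups, so their calls are no independent support. With the mean of its probe sets Arhgap9 did not pass (0.91, adjusted p = 0.123).

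The somatic cell lists below had 0 or 1 gene that passed each. Over all genes 3.74% passed, so lists of this size hold few calls in any case. Of 25 Sertoli genes 1 fell, Dmrt1, which is also made in germ cells, and the median was 0.07. Of 14 peritubular genes 1 fell, Actg2 at -0.46 (median 0.00), and of 17 endothelial genes 1 rose, Selp at 1.04 (median 0.01). Dmrt1 (-0.32) was lost without wild type 4 or 5 or Sohlh2 knockout 3-1 or 5 (adjusted p up to 0.0804). Selp was lost without wild type 4 or 6 or Sohlh2 knockout 3-1, 4 or 5 (up to 0.0924), and Actg2 without any array of wild type, any labelled Sohlh2 knockout, or Sohlh1 knockout 4 (up to 0.154). None passed among 12 Leydig (median -0.02), 21 leukocyte (0.11), 5 erythroid (-0.28) and 6 adipose genes (0.08). Of 3 epididymal genes none passed (0.23), and Pax8 passed once the array labelled Sohlh2 knockout 1 was left out (0.75, adjusted p = 0.0282). The summed signal of the 21 leukocyte genes was 5367 to 7981 in wild type, 5473 to 7825 on Sohlh2 knockout 3-1, 4 and 5, and 15359 on the array labelled Sohlh2 knockout 1.

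Mast cell genes were higher in the knockout. Of 12 listed, 8 were tested, 3 were too dim and 1 had no named probe set. The 3 too dim were Ms4a2, Fcer1a and Mrgprb1, of which the first pair encode the mast cell IgE receptor. Of the 8 tested, 3 rose, where 1.59% of all genes tested did. All 8 had a difference above 0, and their median was 0.95, beside 0.02 over all genes (0.92 from 3 knockout arrays, with array 1 left out). The list was chosen with earlier results of these data known, so these counts are no test. The chymase Cma1 read 142, 191, 76.1 and 131 in wild type and 300, 233, 388 and 336 in the knockout (232% of wild type, adjusted p = 0.00644). Carboxypeptidase A3, Cpa3, read 148, 299, 89.3 and 162 against 505, 365, 588 and 348 (adjusted p = 0.01). Mcpt4, another chymase, had 1.49 and was lost without Sohlh2 knockout 4 (adjusted p = 0.0558). The summed signal of the 8 genes was 1233 to 1993 in wild type and 2190 to 3535 in the knockout. The part of mast cell number in other rises was not tested.

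Some calls depended on the array labelled Sohlh2 knockout 1. Of the 85 that passed only without it, 48 had a signal on that array within the wild-type range. Sox2, a pluripotency factor, read 1.99 to 14.9 in wild type, 96.8, 61.5 and 61.4 on Sohlh2 knockout 3-1, 4 and 5, and 26.7 on the array labelled Sohlh2 knockout 1 (1.59, adjusted p = 0.0529; 1.86, adjusted p = 0.0298 without it). Rises that were larger with that array include Mapk10, a JNK kinase, and Tmem130, both named after their values were seen. Mapk10 read 244 to 370 in wild type and 1430, 509, 830 and 1025 in the knockout, and passed with and without the array (1.43 and 1.20). Tmem130 read 50.3 to 92.7 against 386, 191, 223 and 153 (1.44 and 1.20).

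**Figure D5:**
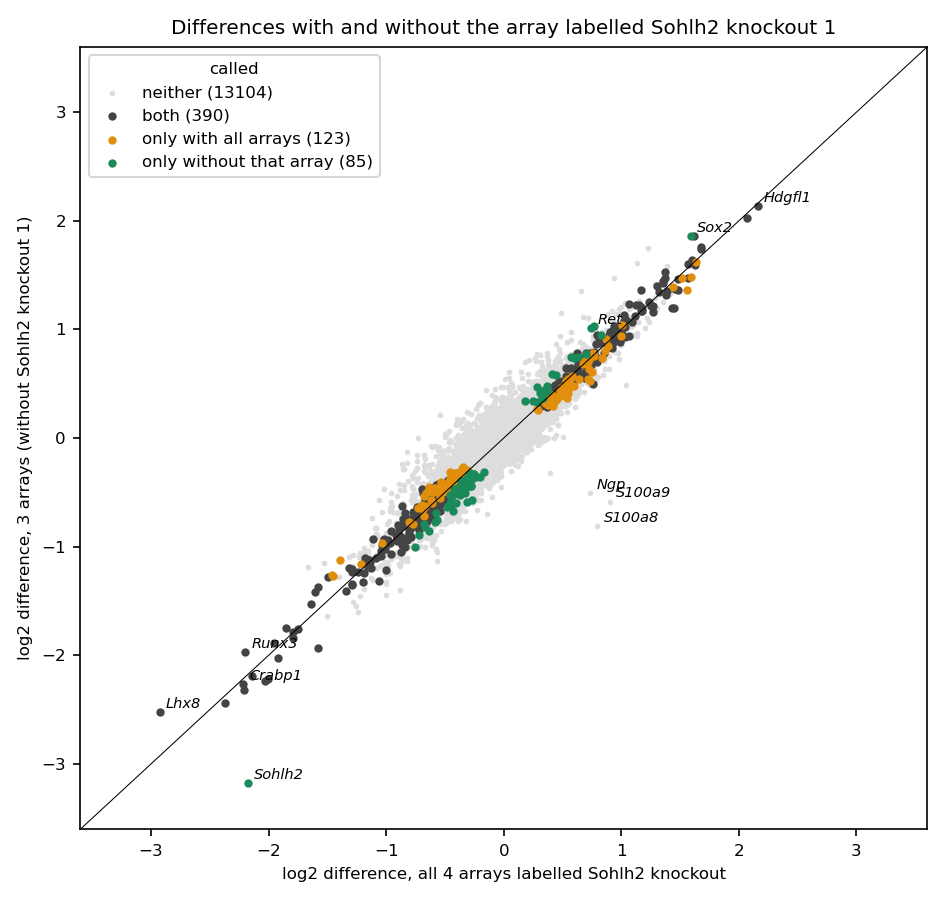
Log2 difference of each tested gene with all 4 arrays labelled Sohlh2 knockout (horizontal) and with 3, without the array labelled Sohlh2 knockout 1 (vertical); colours give whether a gene passed in both fits (390), only with all arrays (123), only without that array (85) or in neither. Most points lie near the diagonal, while Sohlh2, S100a8, S100a9 and Ngp lie far below it.

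The last comparison asked whether any gene had another level in the Sohlh2 knockout than in the Sohlh1 knockout. With limma 0 of 13702 genes passed, and 389 (2.84%) had an unadjusted p under 0.05. Both knockouts were compared with the same wild-type arrays, so likeness between their differences is not given as a result. Without the array labelled Sohlh2 knockout 1 and the array labelled Sohlh1 knockout 5, which also had targeted genes against its label, 4 genes passed. Among them were Sohlh1 and Sohlh2, which are no test there because they chose the arrays left out. The others were Cap1, an actin regulator (-1.15, adjusted p = 0.0193), and the zinc finger gene Zfp386 (1.11, adjusted p = 0.043).

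Many genes have more than 1 probe set, of which the brightest stood for the gene. Of the 513 changed genes 261 had another tested probe set, 425 probe sets in all. Of these 289 had the same sign as the gene, and 31 of them passed when every probe set was tested on its own. In the opposite direction 1 probe set passed. With each of the 24906 probe sets as a feature of its own, 432 (1.73%) passed, 169 (0.679%) higher and 263 (1.06%) lower.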

How the data were processed

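Groups came from the sample titles. The deposited table holds a signal intensity on a linear scale for 45101 probe sets, which the authors made with GCOS and MAS5, per the submitters' processing notes. No version or setting is given in the sources used here. In the table every array has the same trimmed mean, and array medians of the 12 were 76.6 to 90.8. It holds no detection calls, so a dim signal may be background. Labelling started from an oligo(dT) primer per the labels' protocols, which favours the 3' ends of transcripts.

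The 64 control probe sets were left out. Of the other 45037, 34945 had exactly 1 symbol in the platform annotation, 932 several and 9160 none. A probe set was tested if it exceeded 48.6 (40th percentile of values) on at least 4 of 12 arrays, as 24906 with 1 symbol did. The deposited intensity became log2(value + 14.2), the offset being the 20th percentile, and the probe set of highest mean stood for each of 13702 genes. A fit of all 12 arrays with limma 3.58.1 (R 4.3.3; lmFit, then contrasts.fit, then eBayes with a trend) gave two-sided p-values, with Benjamini-Hochberg adjustment over the genes tested. The number of arrays limits the precision. The steps were run on simulated data with independent noise. Of 50 changes of 1.5-fold 48% were recovered, of 50 changes of 2-fold 82%, and 6 unchanged genes were called. The simulation held no outlying array, so it says nothing of the array labelled Sohlh2 knockout 1.

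The comparison and its 29 gene lists were chosen with earlier results of these data known. Lists share genes and got no test of their own. Named genes were Sohlh1, Sohlh2, the 15 rises and the 15 falls of greatest log2 difference among changed genes with no overlap of groups, the 10 rises and 10 falls largest in linear signal, at most 5 genes per list by smallest p, and 15 genes each that passed only with or only without the array labelled Sohlh2 knockout 1. Not all of them are described. Ly6k, Utf1, Tdrd5, Ccna2, Mcm2, Rrm1, Morc1, Ndrg4, Mapk10, Tmem130, Rfxap, Ddx4, Clu, S100a8, S100a9, Ngp, Cap1 and Zfp386 lie outside that rule and were named after their values were seen. Symbols were matched by Entrez identifier to the RefSeq table of GRCm38.p6 (34741 probe sets, 0 symbols differing), whose promoter table gave the sequences. Figures were drawn with matplotlib 3.10.9.

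Alternatives changed the log offset, the scaling (quantile or median), the filter on dim probe sets, the probe set per gene and the moderation (no trend, robust, array weights). Others were fits of fewer arrays, each array left out, a replicate block, a covariate for the 3' to 5' ratio and stricter thresholds. Chosen after seeing the data were a fit without the arrays labelled Sohlh2 knockout 1, Sohlh1 knockout 5 and Sohlh1 knockout 2 together, and a fit of every probe set without the array labelled Sohlh2 knockout 1.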

Additional observations from a re-analysis of the deposited data

Results flagged for a closer look

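For 202 pairs of a named gene and a group of 4 arrays, the highest or lowest array was compared with the other 3, and 13 stood apart by more than Dixon's critical value, where chance flags about 1 in 20. The array labelled Sohlh2 knockout 1 accounted for 6 of them. It was high for Sohlh2 (1847 against 73.2 to 157), S100a8 (3993 against 19.5 to 43.9), S100a9 (2359 against 19.6 to 27.3), Ngp (1323 against 14.6 to 44.5) and Rpl39l (8669 against 7317 to 7436), and low for Ccng1 (740 against 995 to 1017). Sohlh2 had singled out that array, and S100a8, S100a9 and Ngp were named after their values were seen. The flags of these genes are therefore no test against the rate of chance. Sohlh2 knockout 5 was high for Mypn (146 against 90.7 to 96.1).

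In wild type, array 3 was low for Lhx8 (217 against 272 to 280) and high for Arhgap9 (41.2, with 15.1 the lowest of the others), array 4 was low for Tdrd5 (449 against 501 to 510) and high for Hoxb6 (23.2 against 3.51 to 5.91), and array 5 was high for Runx3 (277 against 209 to 218) and Tbx4 (22.9 against 4.21 to 6.25).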

How the results depend on the processing

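The counts of 218 genes higher and 295 lower ran from 112 to 245 and from 150 to 316 with 1 array left out. Array weights gave 449 and 565, median centring 196 lower, adjusted p under 0.01 73 and 105, and a 2-fold minimum 51 and 52. Under the other alternatives both counts stayed within 1.5 times. With the replicate block, for numbers 3, 4 and 5, 176 rose and 259 fell. The array labelled Sohlh2 knockout 1 and wild type 6 share their numbers with no other array, so they dropped out of this difference. The counts with the block thus reflect the loss of these arrays as well as any pairing. Whether the numbers pair the arrays was not settled. Deviations of same-numbered arrays had correlations of 0.06, -0.03 and 0.04, too few and too small to decide it. The most alike wild-type array had the same number for Sohlh2 knockout 3-1 and 5, and was wild type 5 for Sohlh2 knockout 4. Against the Sohlh1 knockout, 4 genes passed without the 2 arrays whose targeted genes go against the labels and 4 without 3 doubted arrays, and 0 in each fit that left out 1 array.

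The only reversals among named genes were those of S100a8, S100a9 and Ngp, none of which passed. Their values were -0.81, -0.58 and -0.51 in each of 4 fits that omitted the array labelled Sohlh2 knockout 1. With the replicate block, in which that array also dropped out of the difference, they were -0.51, -0.36 and -0.20. They were -0.17, -0.21 and -0.080 with array weights, and -0.69, -0.50 and -0.28 with the covariate for the 3' to 5' ratio. Their highest values with 1 array left out were 1.49, 1.46 and 1.34. Of 2989 values of named genes under the alternatives, 2674 kept their direction and their side of the threshold, 238 fell short of it and 56 newly passed it in the same direction, and the causes were not tested.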
